A study of Mus musculus with 8 samples.

Results

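The genes described here are 38 mouse genes of glycolysis, of the pentose phosphate pathway and of hypoxia signalling, chosen by name and grouped by the step they serve. A gene was measured where the array annotation gives at least 1 probe set to it alone, and its value is that of the probe set with the highest mean log2 intensity over all arrays. That held for 34 of the 38 genes, out of 18193 genes named in this way on the whole array. Gpi1, Eno1 and G6pdx had no such probe set in the annotation used and are only named here, and Gapdh was read through the control probe sets of the array.

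Glycolysis converts glucose to pyruvate, which macrophages either reduce to lactate and export or pass through the pyruvate dehydrogenase complex into mitochondria. The pentose phosphate pathway branches off after the hexokinase step and supplies NADPH and ribose, and its non-oxidative arm returns sugars to glycolysis. Hypoxia-inducible factor 1 (HIF-1), whose alpha subunit is encoded by Hif1a, activates many glycolytic genes when oxygen is low and, in macrophages, also after exposure to bacterial products.

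Bone marrow-derived macrophages of C57BL/6J wild-type mice were profiled on 8 arrays of the Affymetrix Mouse 430 2.0 type. Marrow cells had matured for 7 days in medium with L929 cell supernatant, a source of macrophage colony stimulating factor, and were then moved to medium lacking it. M1 macrophages (3 arrays) received LPS at 100 ng/ml together with IFN-γ at 20 ng/ml, M2 macrophages (2 arrays) received IL-4 at 20 ng/ml, and M0 macrophages (3 arrays) were left in media alone. RNA was collected after 24 hours, so each state was seen at a single time. Each n below is a number of arrays, and p-values measure the spread between arrays of the same state, which may in part be technical. The deposited intensities are on a linear scale and are called units here, and log2 differences come from 1 limma fit of all 8 arrays with Benjamini-Hochberg adjustment over 45037 probe sets. A gene passed at an adjusted p under 0.05. Probe sets of different genes bind their targets differently, so levels are compared between arrays and not between genes. In RNA from whole cultures, fewer cells of a type and less RNA per cell cannot be told apart.

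The arrays were alike in scale, with medians of 38.9 to 40.5 units, and arrays of the same state correlated at 0.994 to 0.997 across probe sets. All 7 macrophage markers found (among them Adgre1, Csf1r and Cd68) were above the array median in every state, with summed levels of 60406 to 62467 units in M1 and 50880 to 53862 units in M2 arrays, against 70046 to 72901 units in M0 arrays. Cd68 and Mertk were lower in M1 than in M0 (-0.72 and -0.85), and Adgre1, Lyz2, Fcgr1 and Mertk were lower in M2 (-1.08, -0.38, -3.28 and -1.08). All 6 markers fixed for the M1 state (such as Nos2 and Il12b) and all 6 for the M2 state (such as Arg1 and Retnla) were higher than in M0 in the state they mark. Of the M1 markers, Il6 (2.77, adjusted p = 0.0050) and Ptgs2 (1.42, adjusted p = 0.041) were also higher in M2, and Cxcl9 was lower there (-0.73). Of the M2 markers, 1 was also higher in M1 (2.86), and Mrc1 was lower there (-6.05). All 9 cell division genes measured (such as Mki67 and Top2a) were lower in M1 than in M0, with summed levels of 845 to 951 units in M1 and 2801 to 4001 units in M2 arrays, against 3338 to 5108 units in M0 arrays. Summed levels of the neutrophil, T cell, B cell, fibroblast and erythroid markers stayed between 54.7 and 326 units in every array, and were highest for the 5 fibroblast genes in M1 (186 to 326 units in M1 and 152 to 252 in M2, against 134 to 163 in M0). The part of cell division, of the macrophage markers and of these other cells in the results below was not tested.

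In M1 macrophages, 19 of the 34 genes were higher than in M0, 4 were lower and 11 did not pass. Of all named genes with 1 probe set each, 13.7% were higher in M1 and 11.5% lower, and among those with a mean of at least 64 units, a level that 33 of the 34 genes reached, these shares were 22.6% and 18.3%. Of the 19, 9 were at least 2-fold higher, a change that 2.8% of named genes made, and 0 of the 4 lower genes were at least 2-fold lower in limma, against 3.2%. Among named genes with a mean of at least 64 units, 9.85% passed in M1 with a 2-fold change or more in either direction. In M2 macrophages, 6 genes were higher than in M0, 3 were lower and 25 did not pass, where 8.03% of named genes were higher and 6.43% lower (13.1% and 10.6% of those with a mean of at least 64 units). In M2, 4 genes were at least 2-fold higher and 0 at least 2-fold lower in limma, against 1.91% and 1.76% of named genes. Either change was made by 6.05% of the named genes with a mean of at least 64 units. Without M2 replicate 1, 5 genes were higher and 1 was lower in M2. The median log2 difference over the 34 genes was 0.38 for M1 minus M0 and 0.05 for M2 minus M0, beside 0.02 and 0.01 over all named genes.

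**Figure D1:**
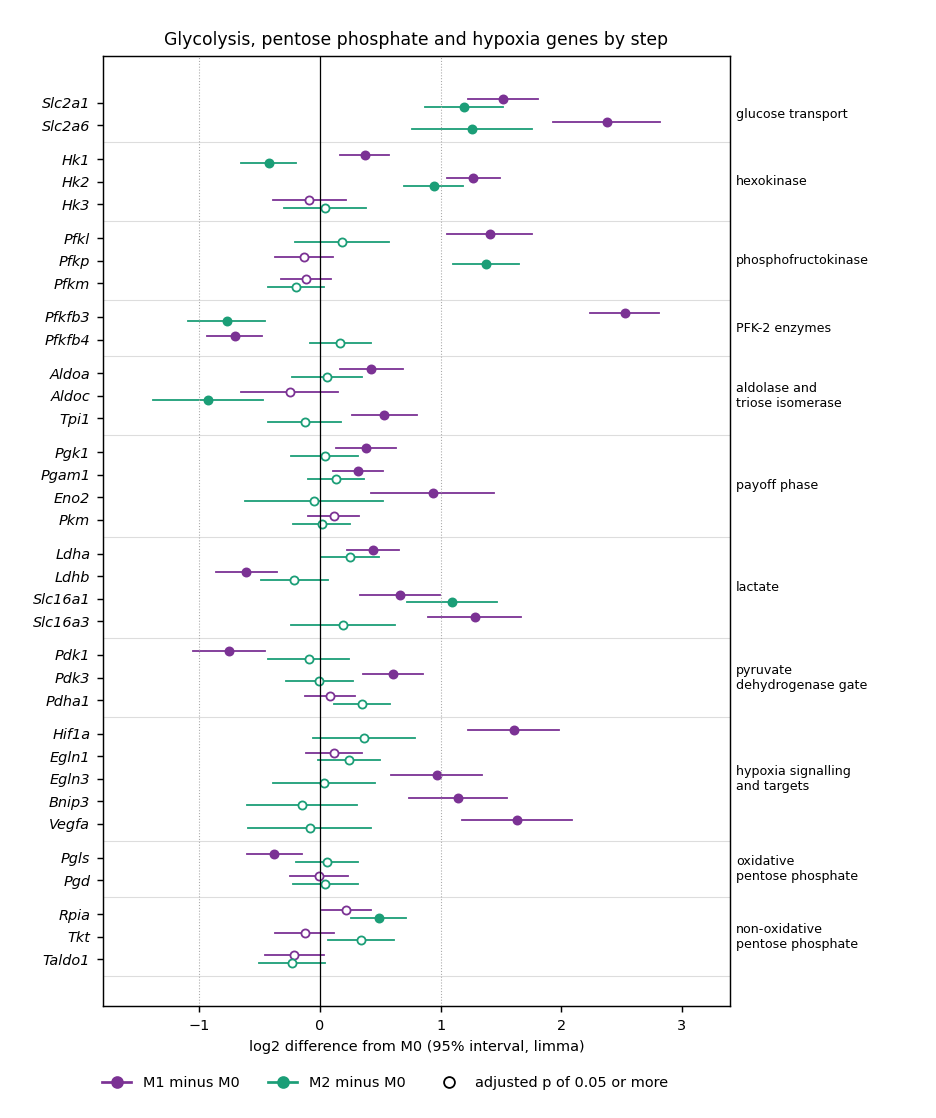
Log2 difference from M0 of the 34 genes for M1 (purple, upper point of each pair) and M2 (green, lower point), by step of the pathway, with 95% intervals from limma; filled points had an adjusted p under 0.05 and dotted lines mark a 2-fold change. Filled purple points right of 0 mark 19 genes, among them both glucose transporters and 4 of 5 hypoxia genes, and filled green points right of 0 mark 6: both glucose transporters, Hk2, Pfkp, Slc16a1 and Rpia.

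The promoters of these genes were read because the genes raised in M1 include Hif1a and several genes known as targets of HIF-1. This factor binds DNA at the core letters ACGTG or GCGTG. The 250 bases before each RefSeq start site were searched for both words on either strand, so that CACGTG, which holds ACGTG on both strands, counts as 2 matches. A gene with several windows counted where any of them held the word. Vegfa counted through its window at chr17:46025164-46025413, while its window at chr17:46032378-46032627 held 0 matches. ACGTG occurred in a window of 14 of the 19 genes higher in M1 (73.7%), of 4 of the 15 other measured genes (26.7%), of 25.9% of named genes with a mean of at least 64 units and of 18.5% of all genes with a window. GCGTG occurred in 11 of the 19 (57.9%), in 13 of the 15 (86.7%), in 50.9% and in 30.9%. Either word occurred in 17 of the 19 (89.5%), in 15 of the 15 (100%), in 62.3% and in 41.5%, a share that was lower in the genes raised in M1 than in the other measured genes. The 19 genes had 25 windows and the 15 had 22, no test was made of these shares, and a match is a match of letters only. The 19 were chosen by values of these same arrays, from a list that includes genes known as HIF-1 targets. The arrays read RNA and not HIF-1α protein, and a role of HIF-1 was not tested. Shown first are windows of 5 genes higher in M1 that hold ACGTG, with all matches to either word in capitals, on GRCm38.p6 and 5′ to 3′ on the strand of the gene.

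Ldha (chr7:46845554-46845803, plus strand): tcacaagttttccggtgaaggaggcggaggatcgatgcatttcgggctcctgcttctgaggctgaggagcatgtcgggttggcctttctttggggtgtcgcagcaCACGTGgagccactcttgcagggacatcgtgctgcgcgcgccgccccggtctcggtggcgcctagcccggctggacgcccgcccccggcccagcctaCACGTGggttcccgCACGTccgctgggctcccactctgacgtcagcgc

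Pfkfb3 (chr2:11502091-11502340, minus strand): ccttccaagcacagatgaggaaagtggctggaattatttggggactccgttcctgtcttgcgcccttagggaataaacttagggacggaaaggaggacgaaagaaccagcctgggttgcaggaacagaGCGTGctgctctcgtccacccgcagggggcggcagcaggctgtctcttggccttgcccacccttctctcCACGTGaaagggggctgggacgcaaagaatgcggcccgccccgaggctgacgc

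Hif1a (chr12:73907617-73907866, plus strand): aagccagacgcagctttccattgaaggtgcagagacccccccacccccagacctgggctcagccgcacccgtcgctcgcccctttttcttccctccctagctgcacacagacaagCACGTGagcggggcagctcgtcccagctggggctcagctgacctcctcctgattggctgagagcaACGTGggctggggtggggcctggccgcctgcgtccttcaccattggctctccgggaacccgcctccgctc

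Bnip3 (chr7:138909507-138909756, minus strand): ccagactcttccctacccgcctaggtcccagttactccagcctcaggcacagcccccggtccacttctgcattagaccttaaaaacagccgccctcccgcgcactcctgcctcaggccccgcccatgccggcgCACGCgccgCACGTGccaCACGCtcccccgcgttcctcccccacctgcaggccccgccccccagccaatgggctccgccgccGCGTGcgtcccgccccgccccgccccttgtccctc

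Slc16a3 (chr11:120948817-120949066, plus strand): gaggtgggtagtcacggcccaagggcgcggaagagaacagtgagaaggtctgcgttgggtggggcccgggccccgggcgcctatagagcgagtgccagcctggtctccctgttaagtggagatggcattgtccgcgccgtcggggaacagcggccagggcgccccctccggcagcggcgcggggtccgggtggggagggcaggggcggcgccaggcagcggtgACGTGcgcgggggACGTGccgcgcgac

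The window shown for Ldha held 5 matches to ACGTG, that of Hif1a 3, and those of Pfkfb3, Bnip3 and Slc16a3 held 2 each, with 3 matches to GCGTG in Bnip3 and 1 in Pfkfb3. Both ACGTG matches in Pfkfb3, and both in Bnip3, come from a single CACGTG. Most of the ACGTG matches in the windows shown for Ldha and Hif1a also come from CACGTG. Ldha and Pfkfb3 each have a further window that is not shown, with 0 matches to ACGTG in Ldha and 1 in Pfkfb3. The next windows are those of Slc2a6, which rose in M1 and in M2, and of Pfkp, which rose in M2 and did not pass in M1.

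Slc2a6 (chr2:27027999-27028248, minus strand): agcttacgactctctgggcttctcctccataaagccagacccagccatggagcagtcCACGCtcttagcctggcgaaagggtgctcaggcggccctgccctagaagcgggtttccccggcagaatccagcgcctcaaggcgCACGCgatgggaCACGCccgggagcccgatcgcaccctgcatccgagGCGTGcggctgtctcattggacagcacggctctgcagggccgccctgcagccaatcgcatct

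Pfkp (chr13:6648772-6649021, minus strand): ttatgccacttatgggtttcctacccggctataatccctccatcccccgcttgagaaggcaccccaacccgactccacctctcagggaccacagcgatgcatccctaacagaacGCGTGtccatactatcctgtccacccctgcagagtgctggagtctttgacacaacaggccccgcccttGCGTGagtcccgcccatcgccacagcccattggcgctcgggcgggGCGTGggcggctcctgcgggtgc

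Both held GCGTG (4 matches in Slc2a6 and 3 in Pfkp) and no ACGTG.

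Both glucose transporters were higher in either stimulated state. Slc2a1 encodes GLUT1, the main glucose carrier of macrophages, and gave 1971, 1452 and 1631 units in M1 and 1168 and 1526 units in M2, against 601, 554 and 596 units in M0. All stimulated arrays lay above all M0 arrays, with log2 differences of 1.52 ± 0.13 (SE, limma adjusted p = 5.6e-06) for M1 and 1.19 ± 0.15 (adjusted p = 0.00021) for M2. M1 and M2 arrays overlapped, and M1 minus M2 was 0.32 with a 95% interval of 0.00 to 0.65 and an adjusted p of 0.18. Over the 3 probe sets of Slc2a1 this difference ran from 0.32 to 0.50, and 1 of them passed as higher in M1 than in M2. Slc2a6, a transporter of the same family that sits on lysosomes, gave 1378, 2034 and 1624 units in M1 and 625 and 931 units in M2, against 428, 283 and 267 units in M0. The 3 states did not overlap, and the log2 difference from M0 was 2.38 ± 0.20 (adjusted p = 4.4e-06) in M1 and 1.26 ± 0.23 (adjusted p = 0.0030) in M2. M1 exceeded M2 by 1.12 ± 0.23 (adjusted p = 0.0036). For Slc2a6 the adjusted p of M2 minus M0 became 0.055 without M2 replicate 2, and that of M1 minus M2 became 0.071 without M2 replicate 1.

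The hexokinases, which phosphorylate glucose and so trap it in the cell, did not move together. Hk2, the inducible form bound to mitochondria, gave 1051, 1069 and 1236 units in M1 and 885 and 892 units in M2, against 457, 444 and 488 units in M0. Neither stimulated state overlapped M0. The log2 difference was 1.27 ± 0.10 (adjusted p = 2.4e-06) in M1 and 0.94 ± 0.11 (adjusted p = 0.00014) in M2. Hk1, the widely expressed form, averaged 922 ± 57.5 units in M1 (SD, n = 3) and 531 ± 11.4 units in M2 (n = 2), against 713 ± 17.9 units in M0 (n = 3). It passed as higher in M1 (0.37, adjusted p = 0.014) and as lower in M2 (-0.43, adjusted p = 0.020). The other Hk1 probe set also passed as higher in M1 (0.56), but did not pass in M2 (-0.25, adjusted p = 0.29 in limma). M1 minus M2 for Hk1 was 0.80 ± 0.11 (adjusted p = 0.00015), and its call against M0 was lost without M0 replicate 2 or 3 in M1 and without any of 4 arrays in M2, where the highest adjusted p was 0.096. Hk3, a form of blood cells, averaged 3074 ± 522 units in M1, 3339 ± 338 in M2 and 3257 ± 427 in M0, and its 95% intervals ran from -0.39 to 0.21 for M1 minus M0 and from -0.30 to 0.38 for M2 minus M0.

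Phosphofructokinase, which commits sugar to glycolysis, is built from 3 kinds of subunit, and a different one rose in each state. Pfkl, the liver type, gave 1468, 1172 and 1552 units in M1 and 522 and 676 units in M2, against 515, 435 and 641 units in M0. M1 lay above both other states (1.41 ± 0.16 over M0, adjusted p = 4.5e-05), while M2 overlapped M0 (0.18, 95% interval -0.21 to 0.57, adjusted p = 0.62). Pfkp, the platelet type, gave 726, 798 and 801 units in M1 and 2082 and 2325 units in M2, against 920, 896 and 741 units in M0. Here M2 stood above both other states (1.37 ± 0.12 over M0, adjusted p = 1.4e-05) and M1 overlapped M0 (-0.13, interval -0.37 to 0.11). The direct comparison of M1 with M2 passed for both, at 1.22 ± 0.18 for Pfkl (adjusted p = 0.00033) and -1.51 ± 0.12 for Pfkp (adjusted p = 2.7e-06), and each of the 3 probe sets of either gene gave the same call between M1 and M2. Pfkm, the muscle type, stayed between 185 and 231 units in all arrays and passed in no comparison.

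Phosphofructokinase is switched on by fructose-2,6-bisphosphate, which the bifunctional PFK-2 enzymes make and break down. Pfkfb3, whose kinase activity dominates, gave 1874, 1388 and 1352 units in M1 and 149 and 160.3 units in M2, against 257, 250.3 and 287 units in M0. It was the largest rise among the 34 genes in M1 (2.53 ± 0.13, adjusted p = 7.1e-08) and it fell in M2 (-0.77 ± 0.15, adjusted p = 0.0039), with no overlap between any pair of states. M1 minus M2 was 3.30 ± 0.15 on the log2 scale, or 9.84-fold (adjusted p = 1.2e-08). Its other probe set was also higher in M1 than in M0, by 1.80, but its fall of 0.64 in M2 did not pass (adjusted p = 0.084). Pfkfb4, a second PFK-2 enzyme, went the other way in M1, at 381 ± 23.4 units in M1 and 701 ± 96.1 units in M2, against 621 ± 13.1 units in M0 (-0.71 ± 0.10 for M1 minus M0, adjusted p = 0.00035, and 0.17, adjusted p = 0.44, for M2 minus M0).

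**Figure D2:**
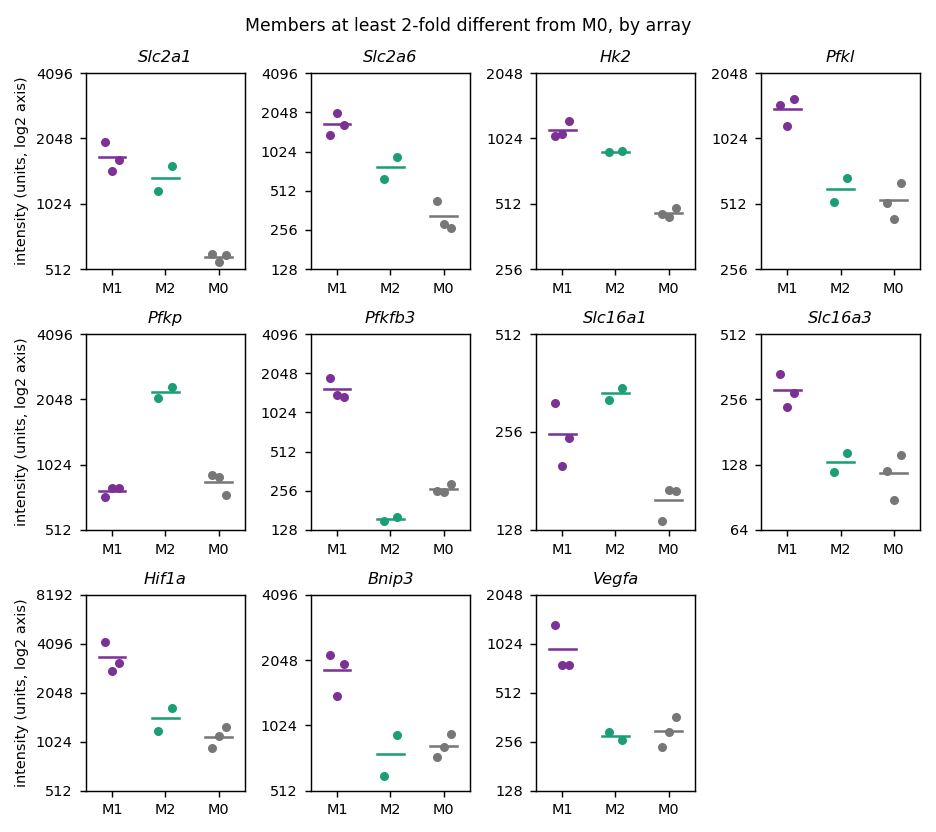
Intensity in units (log2 axis) of each array for the 11 genes at least 2-fold different from M0 in M1 or M2, with M1, M2 and M0 from left to right; points are arrays and bars are group means. Pfkl, Pfkfb3, Slc16a3, Hif1a, Bnip3 and Vegfa are high in the M1 arrays alone, Pfkp in the M2 arrays alone, and Slc2a1, Slc2a6, Hk2 and Slc16a1 in both.

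From aldolase to pyruvate kinase, Aldoa, Tpi1, Pgk1, Pgam1 and Eno2 rose in M1 while Aldoc and Pkm did not pass, and in M2 none of these 7 genes passed as higher in limma, also at an unadjusted p under 0.05. Aldoa, the main aldolase, averaged 11840.2 ± 1051 units in M1 and 9264 ± 1835 in M2, against 8791 ± 121 in M0 (0.43, adjusted p = 0.023 for M1 minus M0). Triose phosphate isomerase, Tpi1, reached 6430.0 ± 752 units in M1 and 4065 ± 473 in M2, against 4439.9 ± 479 in M0 (0.53 ± 0.12, adjusted p = 0.0080). Phosphoglycerate kinase, Pgk1, and phosphoglycerate mutase, Pgam1, were higher in M1 by 0.38 (adjusted p = 0.032) and 0.32 (adjusted p = 0.034). All 3 M1 arrays were above all 3 M0 arrays for these 4 genes, and all 3 probe sets of Tpi1 and of Pgk1 and 4 of 5 of Aldoa passed. The calls were small beside the spread, since those of Aldoa, Pgk1 and Pgam1 were each lost on leaving out any M0 array or M1 replicate 1 (Pgk1 also M1 replicate 3 and Pgam1 M1 replicate 2), with adjusted p up to 0.094, 0.13 and 0.12, while that of Tpi1 held in all 8 fits that left out an array and was lost with intensities under 64 units set to 64 (adjusted p = 0.075). Pkm, which encodes the pyruvate kinase of most tissues, differed by 0.11 (interval -0.10 to 0.32) in M1 and by 0.01 (interval -0.22 to 0.25) in M2.

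Gapdh oxidises the sugar phosphate between triose isomerase and Pgk1 and was read through 3 control probe sets placed along its transcript, an addition made after the data were seen. They gave 13714 to 14964 units in M1 and 11697 to 12897 units in M2, against 12074 to 13168 units in M0. All 3 sets were higher in every M1 array than in every M0 array, by 0.17 to 0.22, with adjusted p of 0.13 to 0.25, so none passed. The ratio of the 3′ to the 5′ set, a measure of RNA integrity, was 0.988 to 1.04 in M1, 0.976 to 1.02 in M2 and 0.947 to 1.01 in M0.

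Aldoc and Eno2 are isoforms best known from the nervous system. Aldoc, the brain-type aldolase, averaged 226 ± 57.1 units in M1 and 141 ± 37.2 units in M2, against 264 ± 28.6 units in M0, and passed as lower in M2 (-0.93 ± 0.21, adjusted p = 0.011). That call was lost without M2 replicate 1, where the difference was -0.66. The other, dimmer Aldoc probe set passed as lower in M1 (-0.40) and did not pass in M2 (-0.36, adjusted p = 0.11 in limma). Eno2, the neuronal enolase, gave 111, 56.6 and 94.0 units in M1 and 51.0 and 35.3 units in M2, against 54.7, 43.5 and 35.6 units in M0, where the M0 array medians were 40.4 to 40.5 units. It passed as higher in M1 (0.93 ± 0.23, adjusted p = 0.013), with an adjusted p of 0.060 at most when 1 array was left out, as happened for M0 replicate 3 and for M1 replicates 1 and 3.

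The subunits of lactate dehydrogenase moved in opposite directions in M1. Ldha encodes the subunit of lactate dehydrogenase that favours lactate formation, and averaged 8001 ± 564 units in M1 and 6999 ± 335 in M2, against 5893 ± 298 in M0. It passed in M1 (0.44 ± 0.10, adjusted p = 0.0065) and not in M2 (0.25, adjusted p = 0.19), although neither state overlapped M0. Ldhb, the subunit that favours lactate use, fell in M1, at 297 ± 34.3 units in M1 and 389.9 ± 31.3 in M2, against 452 ± 34.5 in M0 (-0.61 ± 0.11, adjusted p = 0.0020). All 4 of its probe sets passed as lower in M1 than in M0, with log2 differences of -1.22 to -0.61, and 1 passed as lower in M2 than in M0.

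Slc16a3 encodes MCT4, a lactate exporter of glycolytic cells, and gave 336, 235 and 275 units in M1 and 118 and 145 units in M2, against 120.1, 88.3 and 143 units in M0. Only M1 stood clear of M0 (1.28 ± 0.18, adjusted p = 0.00020), and M1 also exceeded M2 (1.10 ± 0.20, adjusted p = 0.0016). Slc16a1 encodes MCT1, which carries lactate and other short acids in either direction, and gave 314, 201 and 245 units in M1 and 322 and 351 units in M2, against 136, 169.5 and 169 units in M0. It rose by 0.66 ± 0.15 in M1 (adjusted p = 0.0077) and by 1.09 ± 0.17 in M2 (adjusted p = 0.0011), and M1 minus M2 did not pass (-0.43, interval -0.80 to -0.06, adjusted p = 0.11). The other Slc16a1 probe set read 7.80 to 10.9 units in every array, well under the array median.

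**Figure D3:**
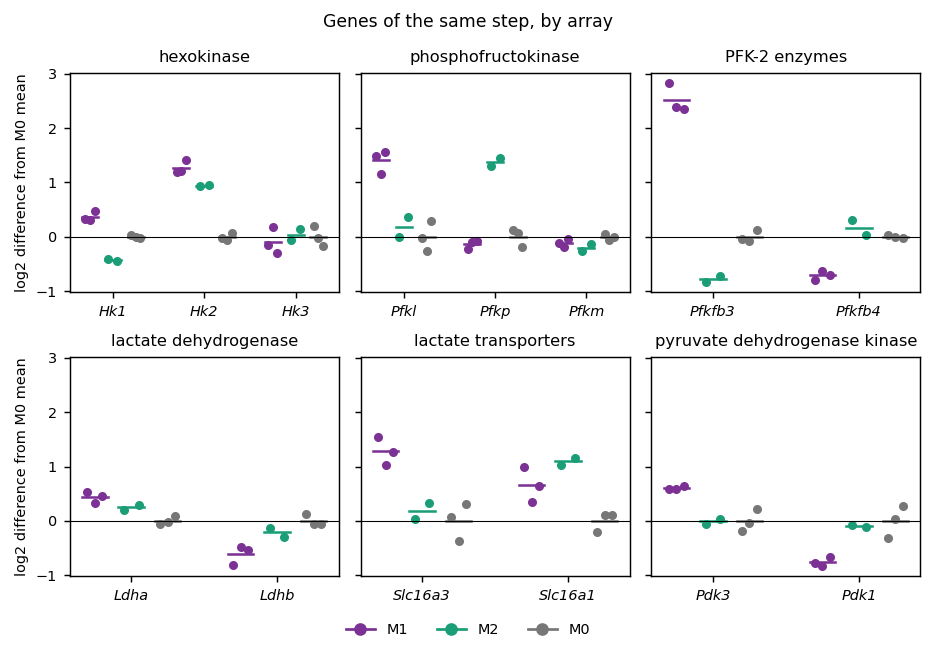
Log2 difference of each array from the mean of the M0 arrays for genes that serve the same step, with M1, M2 and M0 from left to right; points are arrays and bars are group means. Pfkl and Pfkp, Pfkfb3 and Pfkfb4, Ldha and Ldhb, and Pdk3 and Pdk1 sit on different sides of 0 or move in different states.

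Pyruvate dehydrogenase kinases shut the entry of pyruvate into mitochondria, and Pdk1 and Pdk3 moved in opposite directions in M1. The other 2 kinases belong to the further pathway genes: Pdk2 was lower in M1 (-0.44, adjusted p = 0.015) and did not pass in M2 (-0.26, adjusted p = 0.24), and Pdk4 read well under the array median and passed in neither (0.02 in M1 and 0.07 in M2). Pdk1, known as a HIF-1 target in other cells, averaged 311 ± 19.7 units in M1 and 491 ± 5.97 in M2, against 532 ± 109 in M0 (-0.75 ± 0.14 for M1 minus M0, adjusted p = 0.0016). Of its 4 probe sets 3 passed as lower in M1, and the fourth read 11.4 to 16.6 units. Pdk3 gave 410.3, 411 and 425 units in M1 and 263 and 281 units in M2, against 240.1, 266 and 319 units in M0, and was higher in M1 by 0.60 ± 0.11 (adjusted p = 0.0020). Pdha1, the catalytic subunit that the kinases act on, differed by 0.09 in M1 (adjusted p = 0.64), and in M2 it was higher in both arrays than in all M0 arrays by 0.35 (interval 0.12 to 0.58) with an adjusted p of 0.055. The other Pdha1 probe set passed as higher in M1 than in M0, by 0.42, and did not pass in M2.

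Among the hypoxia genes, 4 of 5 rose in M1, and in M2 the 95% intervals of all 5 included 0. Hif1a gave 4238, 2791 and 3110.0 units in M1 and 1199 and 1653 units in M2, against 938, 1112 and 1254 units in M0. M1 arrays stood above all others (1.60 ± 0.17 over M0, adjusted p = 2.8e-05, and 1.24 ± 0.19 over M2, adjusted p = 0.00052), and all 4 of its probe sets passed as higher in M1 than in M0. Vegfa, the vascular growth factor and a classical HIF-1 target, gave 1329.8, 761 and 758 units in M1 and 293 and 263 units in M2, against 237, 295 and 365 units in M0 (1.64 ± 0.21 for M1 minus M0, adjusted p = 0.00011, and -0.09, adjusted p = 0.88, for M2 minus M0). Bnip3, a mitochondrial protein that promotes removal of mitochondria, gave 2175, 1398 and 1972 units in M1 and 597 and 921 units in M2, against 732, 811 and 938 units in M0. M1 was 1.14 ± 0.19 above M0 for Bnip3 (adjusted p = 0.00072) and did not overlap it, whereas M2 did. Egln3 and Egln1 encode prolyl hydroxylases that mark HIF-1α for destruction when oxygen is present. Egln3, itself HIF-induced, gave 105, 69.7 and 114 units in M1 and 42.8 and 56.8 units in M2, against 46.2, 45.7 and 53.0 units in M0 (0.97 ± 0.17, adjusted p = 0.0015, for M1 minus M0). Egln1 lay between 388 and 508 units in all arrays and passed in no comparison.

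The pentose phosphate genes did not share the rise in M1, where 1 of the 5 measured passed and did so as lower. Pgls, the lactonase of the oxidative arm, averaged 1543 ± 139 units in M1 and 2079 ± 72.3 in M2, against 2004 ± 141 in M0 (-0.38, adjusted p = 0.022, and up to 0.092 without M0 replicate 1 or 2 or M1 replicate 1). Pgd, which makes NADPH and ribulose phosphate, differed by -0.01 (interval -0.25 to 0.24) in M1 and by 0.04 (interval -0.23 to 0.32) in M2, and all 4 of its probe sets lay between -0.03 and 0.04 for M1 minus M0. In the non-oxidative arm, Rpia, which makes ribose phosphate, was higher in M2, at 375 ± 14.1 units in M1 and 452 ± 19.9 in M2, against 322 ± 15.4 in M0 (0.49 ± 0.11 for M2 minus M0, adjusted p = 0.0092, and 0.070 without M2 replicate 1). Tkt, the transketolase, gave 5652, 6670.5 and 6919.7 units in M1 and 8893 and 8785 units in M2, against 7487, 7204 and 6311 units in M0. M2 stood above both other states for Tkt, but its chosen probe set passed against M1 (-0.47 for M1 minus M2, adjusted p = 0.018) and not against M0 (0.34, adjusted p = 0.11), while another of its 3 probe sets was higher in M2 than in M0 by 0.57 (adjusted p = 0.0078). Taldo1, the transaldolase, passed in no comparison and ranged from 2633 to 3649 units.

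Set directly against each other, 13 genes were higher in M1 than in M2 and 6 were lower, where 11.5% of named genes were higher and 12.3% lower (18.5% and 19.5% of those with a mean of at least 64 units). The 7 that were at least 2-fold higher were Slc2a6, Pfkl, Pfkfb3, Slc16a3, Hif1a, Bnip3 and Vegfa, and Pfkp alone was at least 2-fold lower, against 3.42% and 4% of named genes. Shares of 2-fold changes among genes with a mean of at least 64 units were not computed for this comparison. The other 6 higher genes were Hk1, Aldoc, Tpi1, Eno2, Pdk3 and Egln3, and the other 5 lower genes were Pfkfb4, Ldhb, Pdk1, Pgls and Tkt. In limma, without M2 replicate 1 the counts were 9 higher and 2 lower, and without M2 replicate 2 they were 14 and 2. Of the smaller differences, that of Ldhb (-0.40, adjusted p = 0.048) was lost in 7 of the 8 fits that left out an array. With all arrays, all 4 Ldhb probe sets passed as lower in M1 than in M2 (-0.71 to -0.40). The calls of Slc2a6, Tpi1 and Egln3 were lost without M2 replicate 1, and that of Pdk1 without either M2 array. Those of Pgls and Tkt were lost without either M2 array or M1 replicate 1. That of Aldoc had an adjusted p of up to 0.35, lost without M0 replicate 2, M1 replicate 1 or 3, or M2 replicate 1, and that of Eno2 up to 0.19, lost without M1 replicate 1 or 3 or M2 replicate 2.

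Arrays of the same state differed in these genes too. The median over the 34 genes of the log2 difference from the M0 mean was 0.48, 0.30 and 0.37 in M1 replicates 1, 2 and 3, and -0.01 and 0.17 in M2 replicates 1 and 2. Over all 34 genes the highest M1 value was in replicate 1 for 14, in replicate 2 for 7 and in replicate 3 for 13, the higher M2 value was in replicate 2 for 24, and the highest M0 value was in replicate 1 for 15, in replicate 2 for 3 and in replicate 3 for 16. Of the 19 genes higher in M1, a set chosen by values of these same arrays, 13 had their highest M1 value in replicate 1 (68.4%, against 23.9% of named genes with a mean of at least 64 units) and 16 had their higher M2 value in replicate 2 (84.2%, against 42.2%). In M0, 13 of the 19 were highest in replicate 3 (68.4%, against 28.5%). Without M1 replicate 1, 15 genes were higher in M1 than in M0, and without M0 replicate 3, 14 were. The source of this spread was not tested.

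Of 80 further genes of the same pathways, listed beside the 38, 73 were measured. In M1, 23 of them were higher than in M0, 13 were lower and 37 did not pass, and in M2, 9 were higher, 12 lower and 52 did not pass. Over all named genes the shares were 13.7% higher and 11.5% lower in M1 and 8.03% and 6.43% in M2, and over those with a mean of at least 64 units 22.6% and 18.3% in M1 and 13.1% and 10.6% in M2. Of 23 further genes of glycolysis and lactate, 6 were higher and 5 lower in M1, none of them at least 2-fold higher, and 1 was higher and 6 were lower in M2. Of 10 further genes of the pyruvate gate, 3 were higher and 2 lower in M1, and in M2, 3 were higher and 7 did not pass. Of 12 genes of gluconeogenesis and glycogen, 3 were higher and 2 lower in M1, and 2 were higher and 4 lower in M2. Of 8 further pentose phosphate genes, 2 were higher and 1 lower in M1, and in M2, 1 was higher and 7 did not pass. Of 20 further hypoxia genes, 9 were higher and 3 lower in M1, and 2 were higher and 2 lower in M2. Ankrd37, known as a gene that HIF-1 induces, gave 737, 333 and 508 units in M1 and 93.6 and 77.0 units in M2, against 61.7, 61.3 and 75.4 units in M0 (2.92 for M1 minus M0, adjusted p = 1.7e-06). Ero1l, an oxidase of protein folding, rose by 1.70 in M1 (adjusted p = 2.3e-05) and P4ha1, a collagen prolyl hydroxylase, by 1.16 (adjusted p = 0.00034). Vhl, which directs HIF-1α to degradation, was higher in M1 by 1.12 (adjusted p = 1.5e-05) and in M2 by 0.99 (adjusted p = 0.00021). Ndrg1, often induced by hypoxia in other cells, was lower in M1 (-1.72, adjusted p = 5.1e-06), and Cited2, which competes with HIF-1α for its coactivator, was lower in M1 (-1.33, adjusted p = 2.8e-05) and in M2 (-0.91, adjusted p = 0.0023).

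In the other lists, the pentose phosphate epimerase Rpe rose by 1.30 in M1 (adjusted p = 2.2e-05), unlike the 5 genes of that pathway above. Prps1, which turns ribose phosphate into the precursor of nucleotides, gave 209, 234 and 213 units in M1 and 746 and 916 units in M2, against 232, 269 and 262 units in M0, a rise in M2 of 1.70 (adjusted p = 2.6e-06). Gys1, the glycogen synthase, was higher in M1 by 1.27 (adjusted p = 9.5e-05). Slc16a7, a further carrier for lactate and pyruvate, was lower in M1 (-1.33, adjusted p = 2.3e-05) and in M2 (-0.77, adjusted p = 0.0065), and Slc37a2, a sugar phosphate exchanger, was lower in M1 (-0.96, adjusted p = 5.4e-05) and in M2 (-1.30, adjusted p = 2.3e-05).

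The chosen probe sets of Hk3, Aldoa, Tpi1, Pgk1, Pgd and Tkt belong to a class that the array design marks as able to bind other transcripts too, so the levels of these 6 genes are uncertain to that extent. Of the 34 genes, 14 had a single probe set, so that no second set could be compared for them, among them Slc2a6, Hk2, Slc16a3 and Bnip3.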

How the data were processed

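The genes and lists described were chosen with earlier results of these data known. Per the study's methods, the authors normalized raw arrays by RMA (GenePattern, Expression File Creator), which corrects background, equalizes the distributions of the arrays and summarizes probe sets; the RMA version is not given in the sources used here. The deposited table holds linear intensity for 45101 probe sets. For this report the log2 of each value was taken, 64 control probe sets were left out and the remaining 45037 were tested with limma 3.58.1 in R 4.3.3 (lmFit and eBayes, 5 residual degrees of freedom), with a mean per state over all 8 arrays and all 3 pairwise contrasts between states, adjusted by Benjamini and Hochberg. For the Gapdh values alone, the 6 control probe sets of Gapdh and Actb were added to this fit and its adjustment. Groups followed the sample labels, which call the arrays biological replicates; the methods name both independent mice and in vitro replicates. The methods name an unpaired t-test and no pairing, so arrays were not paired in the main fit. Sample titles carry a number shared between states, which may mark a common mouse. Deviations of arrays with the same replicate number correlated at -0.172 to 0.0547 in 7 pairs, against -0.150 to 0.190 in 14 others. Deviations from the mean of a state are tied to each other, and those of the 2 M2 arrays are mirror images. These correlations therefore cannot settle whether arrays share a mouse. Genes were joined through the array annotation, using the 34945 probe sets with 1 symbol, while 932 had several and 9160 were not listed; Ero1l was found under Ero1a. All 38 genes could be named, with the value of every array for those at least 2-fold different from M0 in a test that passed. Values of other pathway genes were to be given only where they met that rule. The differences of Pdk2 and Pdk4, which did not meet it, were given as well. Array values of some further genes were added after they were seen. Promoter windows came from a RefSeq table on GRCm38.p6 that matched all 38 genes. The procedure was run on simulated data with independent noise and planted differences larger than most of those reported here. That run does not bear on the smaller calls. The alternatives were a t-test as named by the methods, other variance models, scalings, limits on intensity, probe choices and thresholds, a replicate block and each array left out. Python 3.11.15 with matplotlib 3.10.9 drew the figures.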

Additional observations from a re-analysis of the deposited data

How the results depend on the processing

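The median differences of M1 minus M0 and M2 minus M0 moved by less than the spread between arrays in each setting that recomputed them. For M2 this spread rests on 2 arrays, and leaving out either one leaves the median of the other (-0.01 or 0.17). In those fits the comparison could hardly come out otherwise. No count moved by over 1.5 times with a trend in the variances, with only the compared states, with median centring, with a further quantile normalization, with probe sets of at least 64 units alone or with the mean of all probe sets of a gene. With the methods' t-test, 10 genes were higher and 1 lower in M1 than in M0, 0 higher and 0 lower in M2 than in M0 (10 and 4 at an unadjusted p under 0.05, beside 9 and 3 with limma), and 3 higher and 1 lower in M1 than in M2. The M1 minus M0 calls lost with it were those of Tpi1 (adjusted p = 0.094), Pgk1, Eno2, Ldhb, Slc16a1, Slc16a3, Pdk1, Pdk3, Egln3, Bnip3, Vegfa and Pgls. With intensities under 64 units set to 64, 12 genes were higher in M1 than in M0, 1 was lower in M2 than in M0, and 6 were higher and 3 lower in M1 than in M2 (the cause was not tested). Calls against M0 lost in this way were those of Aldoa, Tpi1, Pgk1, Eno2, Slc16a1, Egln3, Bnip3 and Pgls in M1 and of Slc2a6, Pfkfb3, Aldoc and Slc16a1 in M2. Among these calls the log2 difference itself changed only for Eno2 and Egln3. The other genes lay above 64 units in every array, and their log2 differences stayed the same. With the second brightest probe set of each gene, 0 genes were lower in M2 than in M0 (4 at an unadjusted p under 0.05 in limma), and 2 signs turned, at dim probe sets, to -0.025 for Slc16a1 in M1 minus M0 and -0.035 for Aldoc in M1 minus M2. At an adjusted p under 0.01, 1 gene was lower in M2 than in M0 and 3 were lower in M1 than in M2. With a limit of 2-fold, 9 were higher and 0 lower in M1 than in M0, 0 lower in M2 than in M0, and 7 higher and 1 lower in M1 than in M2. With the replicate number as a block, 17 genes were higher in M1 than in M0 and 3 lower in M1 than in M2, and 7 calls were lost (Pgk1 and Pgam1 in M1 minus M0, Hk1 in M2 minus M0, and Aldoc, Ldhb, Pgls and Tkt in M1 minus M2). With each array left out in turn, 14 to 19 genes were higher and 3 to 4 lower in M1 than in M0, 5 to 6 higher and 1 to 3 lower in M2 than in M0 (1 without M2 replicate 1), and 9 to 14 higher and 2 to 6 lower in M1 than in M2 (2 lower without M2 replicate 1 and also without M2 replicate 2). The medians then ran from 0.33 to 0.42 for M1 minus M0 and from -0.01 to 0.17 for M2 minus M0. With 1 array left in M2, that array was assumed to vary like those of the other states. Signal limits the calls of Eno2 and Egln3, whose M0 values lay near the array median.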
